A study of Mus musculus with 6 samples.

Results

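The integrated stress response and the unfolded protein response were followed through 10 of their regulators and sentinel targets, Atf4, Atf3, Atf6, Ddit3, Chac1, Trib3, Asns, Ppp1r15a, Xbp1 and Ern1, in mouse melanoma cells with and without Spp1, the gene of the secreted phosphoprotein osteopontin. They were taken by gene symbol from a deposited table of 19213 genes, and all 10 were listed and passed the filter on low values. PolyA-selected RNA was sequenced from 3 libraries of cells carrying a non-targeting control and 3 libraries of cells whose Spp1 had been disrupted by CRISPR-Cas9, with no other allele, drug or time point named. The labels call the libraries biological replicates of 1 batch but say neither how the cultures were separated nor if the knockout was a clone or a pool, and the p-values below therefore reflect how far these libraries varied, not how far knockout lines would. The cell line label is different in each sample and runs from B16F10 (control 1), a mouse melanoma line that metastasises, to B16F15 (knockout 3); whether the cells differed is not stated, and such a difference and the knockout cannot be told apart.

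As background, the integrated stress response starts when a kinase that senses misfolded protein, amino acid shortage, haem shortage or double-stranded RNA phosphorylates the translation factor eIF2. General translation then falls, while the mRNA of the transcription factor ATF4 is translated more through its upstream open reading frames, so ATF4 activity is set largely at translation and its mRNA level is only part of its control. ATF4 and its target CHOP, the product of Ddit3, switch on amino acid supply, redox and death genes, and the phosphatase subunit GADD34, the product of Ppp1r15a, ends the response by dephosphorylating eIF2. The unfolded protein response of the endoplasmic reticulum has that pathway as one arm and the sensors IRE1, the product of Ern1, and ATF6 as the other arms. IRE1 removes a short intron from the Xbp1 mRNA, and counts per gene cannot separate spliced from unspliced Xbp1. In melanoma these pathways are known for their links to nutrient shortage and to switches of cell state.

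The promoters of 5 of these genes are shown because they carry the largest differences or the motifs searched for. That of Atf3, which also holds a match, is not shown. They are the 250 bases before the RefSeq start on GRCm38.p6, written 5′ to 3′ on the strand of the gene, with any motif match in capitals. Ddit3 (chr10:127290543-127290792, plus strand), Trib3 (chr2:152344061-152344310, minus strand) and Ppp1r15a (chr7:45526269-45526518, minus strand) had the largest log2 changes of the 10. Chac1 (chr2:119350992-119351241, plus strand) and Asns (chr6:7693210-7693459, minus strand) hold a match to the C/EBP-ATF response element, the composite site that ATF4 binds with a C/EBP partner.
Ddit3: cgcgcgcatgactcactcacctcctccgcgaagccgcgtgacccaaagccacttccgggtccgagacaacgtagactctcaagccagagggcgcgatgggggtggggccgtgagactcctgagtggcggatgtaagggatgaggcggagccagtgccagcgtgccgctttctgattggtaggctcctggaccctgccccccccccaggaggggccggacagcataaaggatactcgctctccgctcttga
Trib3: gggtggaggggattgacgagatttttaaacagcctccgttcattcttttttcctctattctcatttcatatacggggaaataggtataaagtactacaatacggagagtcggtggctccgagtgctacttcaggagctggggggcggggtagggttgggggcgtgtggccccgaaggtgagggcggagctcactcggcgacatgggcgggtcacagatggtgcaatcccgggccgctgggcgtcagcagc
Ppp1r15a: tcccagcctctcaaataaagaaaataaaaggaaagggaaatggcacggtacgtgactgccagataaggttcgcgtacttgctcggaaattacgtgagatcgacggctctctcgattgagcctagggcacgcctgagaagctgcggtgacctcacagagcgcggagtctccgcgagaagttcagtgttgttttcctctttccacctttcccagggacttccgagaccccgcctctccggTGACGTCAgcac
Chac1: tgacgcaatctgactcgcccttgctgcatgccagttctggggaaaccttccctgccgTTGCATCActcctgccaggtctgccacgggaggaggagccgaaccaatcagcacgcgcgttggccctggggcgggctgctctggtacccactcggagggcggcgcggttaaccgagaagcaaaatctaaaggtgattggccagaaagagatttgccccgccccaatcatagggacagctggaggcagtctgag
Asns: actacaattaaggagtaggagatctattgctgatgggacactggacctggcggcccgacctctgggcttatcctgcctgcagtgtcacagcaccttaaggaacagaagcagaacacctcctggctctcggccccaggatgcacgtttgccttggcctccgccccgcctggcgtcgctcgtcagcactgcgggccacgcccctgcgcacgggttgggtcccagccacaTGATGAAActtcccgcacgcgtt
The motifs, read on both strands, were TGATGNAA for the C/EBP-ATF response element, TGACGTCA for the cAMP response element, TGACGTG for the core of the XBP1 element, and CCAAT followed after 9 bases by CCACG for the endoplasmic reticulum stress element. The cAMP and XBP1 elements share letters, as do the C/EBP-ATF and cAMP elements. A promoter was found for 9 of the 10 genes, all but Atf6. The C/EBP-ATF motif was matched in 3 of the 9, on the reverse strand 193 to 186 bases before the start of Chac1 and 110 to 103 bases before that of Atf3, and on the forward strand 23 to 16 bases before that of Asns. It was matched in 3.45% of all 32851 promoters of the same length and in 2.3% of those of 9789 tested genes. The cAMP motif was matched 12 to 5 bases before the start of Ppp1r15a and is held by 1.55% of all promoters and 3.13% of those of tested genes. Neither of the other motifs was matched in the 9 promoters. The XBP1 core is held by 1.65% of all promoters and 2.69% of those of tested genes, and the endoplasmic reticulum stress element by 0.113% and 0.194%. These letters were not found in the windows of Atf4, Ddit3, Trib3, Xbp1 and Ern1. Sites outside the 250 bases or with other letters were not searched, so the search cannot say that these genes lack such elements. The genes holding the C/EBP-ATF match did not share a direction, as the values below show.

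The targeted gene was measured first. Spp1 stood at 149.3, 156.5 and 144.8 scaled reads in control 1 to 3 and at 2.09, 1.98 and 3.9 in knockout 1 to 3. All knockout libraries were far below all control libraries (limma adjusted p = 8.98e-11). Scaled reads are reads per gene divided by 1 size factor per library, as deposited. Recovered depth was 72717465 to 94314770 reads per library, and the least abundant of the 10 genes, Atf3, had 188 to 266 reads. All 7 melanocyte and melanoma markers were listed, with a summed level of 898571.2 to 914819.2 scaled reads in control and 1059656.8 to 1070434.1 in knockout. Of these markers 4 rose and 1, the tyrosinase gene Tyr, fell from 29433 ± 703.6 to 20055 ± 717 scaled reads (limma adjusted p = 1.41e-09). Of 7 macrophage and leukocyte markers only Cd68, Csf1r and Fcgr3 were listed, and their sum was 102.8 to 120.1 in control and 46.0 to 58.6 in knockout. Nearly all of that sum was Cd68, with a mean of 106.6 in control and 47.7 in knockout. Csf1r and Fcgr3 were too low to be tested. Of 6 fibroblast markers 3 were listed (413.3 to 465.8 against 372.8 to 384.8), of 5 endothelial markers 2, nearly all of it Vwf (78.9 to 81.4 against 608.0 to 657.8), and of 6 epithelial markers 1 (24.0 to 30.1 against 25.7 to 30.3). Within the fibroblast sum Pdgfra fell from 222.9 to 135.6 scaled reads (limma adjusted p = 2.39e-05). Postn, at 214.8 in control and 242.2 in knockout, did not pass (limma adjusted p = 0.117). The part of these markers in the results below was not tested.

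Gene by gene, 7 of the 10 passed the test, with Ddit3, Trib3, Chac1, Atf4 and Xbp1 lower and Ppp1r15a and Asns higher in knockout. The transcriptome as a whole had changed as often, since 63.0% of 15307 tested genes passed (limma, two-sided, adjusted p under 0.05 over all tested genes), 34.4% higher and 28.6% lower. The share of the 10 that passed is thus close to the background and is not a result about these genes. All 3 knockout libraries lay on one side of all 3 control libraries in 7 of the 10, against 67.1% of tested genes. The sizes differed more than the count. Against a null of a change up to 1.2-fold (limma's treat, chosen after seeing the data), Ddit3, Trib3 and Ppp1r15a passed, 3 of 10 beside 24.5% of tested genes. The median log2 change was -0.13 over the 10 and 0.03 over all tested genes. In these bulk samples fewer cells expressing a gene and less RNA per cell cannot be told apart.

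**Figure D1:**
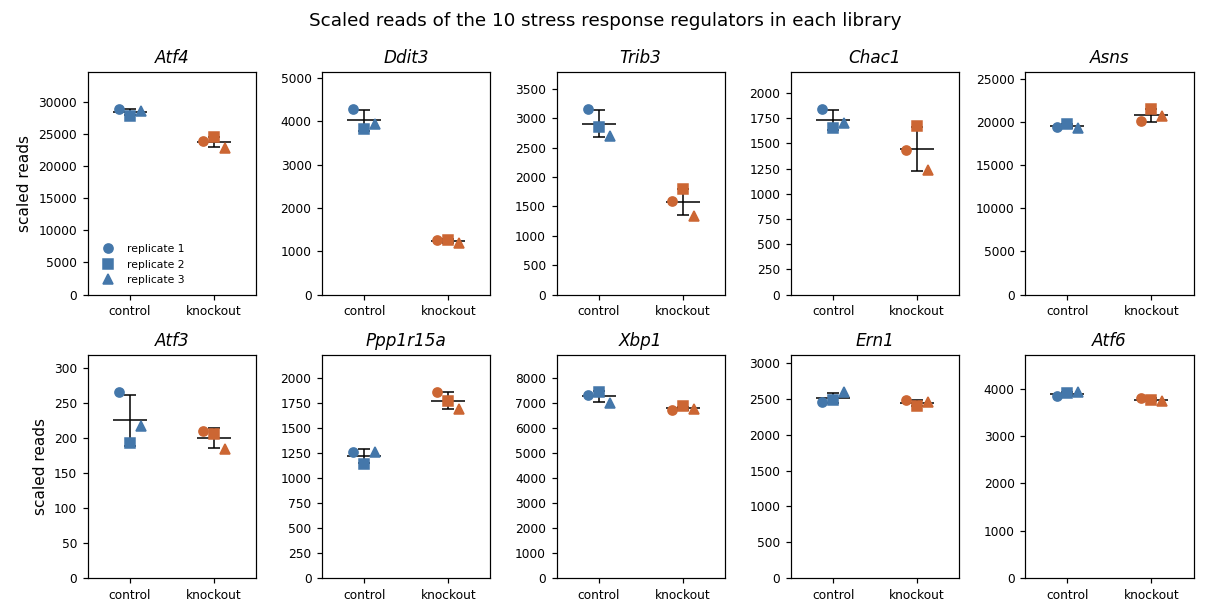
Scaled reads (y axes, linear, from 0) of each of the 10 genes in control and knockout libraries (x axes); marker shape gives the replicate number, and the black bar and whiskers are the mean and SD of 3 libraries. Ddit3, at 3831 to 4286 in control and 1185 to 1267 in knockout, shows the widest gap, Trib3 falls and Ppp1r15a rises with no overlap, and the groups of Atf3, Chac1 and Ern1 overlap.

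Of the 4 transcription factors made or activated under stress that are given first, Ddit3 fell strongly, Atf4 and Xbp1 fell slightly and Atf3 did not pass. Ddit3 encodes CHOP, the transcription factor that turns the response towards death and recovery of protein synthesis. It is a protein-coding gene on the plus strand of mm10 at chr10:127290774-127296288. Ddit3 stood at 4286, 3831 and 3944 scaled reads in control 1 to 3 and at 1263, 1267 and 1185 in knockout 1 to 3. The lowest control library was about 3 times the highest knockout library, and the 3 knockout libraries lay close together. From 4020.4 ± 236.9 it fell to 1238 ± 46.3 (SD, n = 3 each), a ratio of 0.308. The log2 change was -1.70 ± 0.05 (SE, 95% interval -1.80 to -1.59, limma adjusted p = 4.95e-13), larger in size than that of 97.3% of tested genes. Its exons share 10.9% of their length with other annotated genes, among them Mars on the opposite strand, and reads there cannot be assigned without a stated strand setting.

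Atf4, the central activator, fell far less. It lies on the plus strand at chr15:80255184-80257541. It stood at 28917, 27868 and 28530.1 scaled reads in control and at 23907.5, 24528 and 22901 in knockout. The groups did not overlap. The mean went from 28438 ± 530.4 to 23779 ± 821.4, a ratio of 0.836, with a log2 change of -0.26 ± 0.03 (limma adjusted p = 4.52e-06). Genes around it fell by nearly as much, as given below.

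Atf3, an early stress-induced repressor and activator on the minus strand at chr1:191170296-191218039, did not pass. It stood at 265.3, 193.1 and 216.4 scaled reads in control and at 209.2, 205.8 and 183.5 in knockout. Control 1 was the highest of all libraries and the other libraries overlapped. The log2 change was -0.16 ± 0.12, with a 95% interval of -0.41 to 0.09 (limma adjusted p = 0.243), which still holds changes larger than that of Atf4. The estimate rested on single libraries, at -0.04 without control 1 and -0.27 without control 2, and did not pass without either.

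Xbp1, whose spliced form encodes the transcription factor of the IRE1 arm, lies on the plus strand at chr11:5520659-5525893. It stood at 7333, 7425 and 7013 scaled reads in control and at 6730.3, 6859 and 6742 in knockout. The groups lay apart by a narrow margin, between the lowest control and the highest knockout library. It fell by 0.10 ± 0.03 on the log2 scale (95% interval -0.17 to -0.03, limma adjusted p = 0.0169). Leaving out knockout 1, control 1 or control 2 ended that call, at limma adjusted p of 0.0628, 0.0504 and 0.0864.

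The sensors of the endoplasmic reticulum did not pass. Ern1, the kinase and nuclease IRE1, lies on the minus strand at chr11:106394650-106487852. It stood at 2459, 2490.1 and 2596 scaled reads in control and at 2487.5, 2398 and 2454 in knockout. The groups overlapped, and the log2 change was -0.04 ± 0.04 (95% interval -0.12 to 0.04, limma adjusted p = 0.405). Atf6, a membrane-bound transcription factor released by cleavage, lies on the minus strand at chr1:170704674-170867771. It stood at 3849.6, 3914 and 3928 scaled reads in control and at 3800.3, 3764 and 3732 in knockout. Every knockout library was below every control library, yet the difference was small, -0.05 ± 0.03 on the log2 scale (95% interval -0.12 to 0.02, limma adjusted p = 0.218). With libraries scaled to equal totals it passed (log2 change -0.10, limma adjusted p = 0.0155).

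Of the 4 target genes among the 10, Trib3 fell by the most. Trib3 encodes a pseudokinase induced by ATF4 and CHOP that in turn restrains ATF4, and lies on the minus strand at chr2:152337422-152344032. It stood at 3158, 2852 and 2706 scaled reads in control and at 1590.0, 1791.5 and 1340.0 in knockout. All knockout libraries were below all control libraries, with a wider spread in knockout relative to the level. It went from 2906 ± 230.7 to 1574 ± 226.1, a ratio of 0.542. The log2 change was -0.89 ± 0.11 (95% interval -1.16 to -0.63, limma adjusted p = 0.000327).

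Chac1, a glutathione-degrading enzyme downstream of ATF4, lies on the plus strand at chr2:119351229-119354381. It stood at 1842, 1658 and 1699 scaled reads in control and at 1436, 1671 and 1235 in knockout. Knockout 2 was above control 2, so the groups overlapped. It fell by 0.27 ± 0.10 on the log2 scale (95% interval -0.50 to -0.04, limma adjusted p = 0.0424). The call ended without knockout 1, control 1, control 2 or control 3 (limma adjusted p = 0.0733, 0.144, 0.0674 and 0.125). Without knockout 3 the log2 change was -0.16 and still passed (limma adjusted p = 0.0494).

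Asns, asparagine synthetase and a standard reporter of ATF4 activity, lies on the minus strand at chr6:7675169-7693254. It stood at 19444, 19725 and 19317 scaled reads in control and at 20057, 21495.5 and 20676 in knockout. Every knockout library was above every control library by a small margin. The log2 change was 0.09 ± 0.03 (95% interval 0.02 to 0.16, limma adjusted p = 0.0243), opposite in sign to that of Atf4, Trib3 and Chac1. The call ended with trimmed-mean (TMM) scaling (0.07, adjusted p = 0.0621), with equal totals (0.04, adjusted p = 0.292) and without knockout 2 (0.06, adjusted p = 0.137), all in limma.

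Ppp1r15a rose by the most of the 10. It encodes GADD34, the stress-induced subunit that directs a phosphatase to eIF2, and lies on the minus strand at chr7:45522916-45526268. It stood at 1254, 1135 and 1259.5 scaled reads in control and at 1854, 1766 and 1690.4 in knockout. The groups were well apart. It went from 1216 ± 70.7 to 1769.9 ± 81.7, a ratio of 1.46. The log2 change was 0.54 ± 0.05 (95% interval 0.43 to 0.66, limma adjusted p = 3.24e-07), larger than that of 79.8% of tested genes. Ddit3, Trib3 and Ppp1r15a kept their calls and directions under each of the 18 alternative settings run, with log2 changes of -1.75 to -1.16, -1.02 to -0.78 and 0.49 to 0.57.

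Ratios taken within a library are free of the size factor. The ratio of Ddit3 to Atf4 was 0.148, 0.138 and 0.138 in control and 0.0528, 0.0517 and 0.0517 in knockout, so that the knockout ratio was 0.368 of the control ratio. The ratio of Trib3 to Atf4 went from 0.102 ± 0.00718 to 0.066 ± 0.00727 and also did not overlap. The ratio to Atf4 was 1.74 times its control value in knockout for Ppp1r15a and 1.27 times for Asns, again with no overlap. Chac1 was at 0.0609 ± 0.00242 of Atf4 in control and 0.0607 ± 0.00712 in knockout, with overlapping groups. The ratio of Trib3 to Ddit3 went from 0.722 ± 0.0317 to 1.27 ± 0.142, with no overlap. Beside its constitutive counterpart Ppp1r15b, which encodes the phosphatase subunit CReP, Ppp1r15a went from a ratio of 0.0891 ± 0.00388 to 0.114 ± 0.00393, with no overlap. The ratio of Xbp1 to Ern1 was 2.89 ± 0.162 in control and 2.77 ± 0.0801 in knockout, with overlap. These ratios are descriptions of values already tested and add no test.

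Per kilobase of merged exon the 10 genes covered a wide range of levels. In control the order was Atf4 at 12060.3 scaled reads per kb, Asns at 7128, Ddit3 at 2347, Xbp1 at 2234, Trib3 at 1367, Chac1 at 1059, Atf6 at 422.2, Ppp1r15a at 414.1, Ern1 at 307.7 and Atf3 at 104.4. Ddit3 and Xbp1 overlapped in their libraries, as did Atf6 and Ppp1r15a. The other neighbours in that order lay apart. In knockout Ddit3, at 722.8, stood below Xbp1, at 2087, and in every library below Chac1, at 884.1, and its libraries overlapped with those of Trib3, at 740.6, whose lowest library also overlapped with the highest of Ppp1r15a. Ppp1r15a, at 602.6, lay above Atf6, at 407.9, with no overlap.

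**Figure D2:**
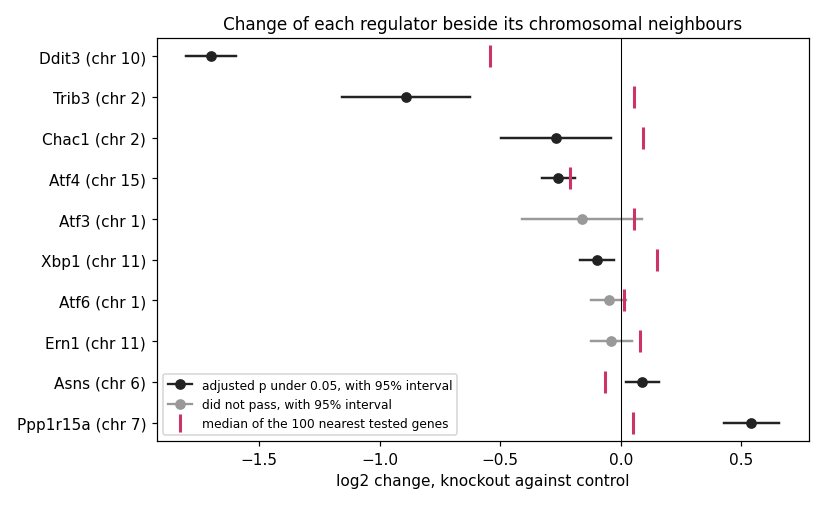
Log2 change of knockout against control (x axis) for each of the 10 genes (y axis, with chromosome), with 95% intervals from limma; black marks genes that passed and grey those that did not. The vertical pink ticks are the median log2 change of the 100 nearest tested genes, near which Atf4 lies (-0.21) and from which Ddit3 (-0.54 around it), Trib3 and Ppp1r15a lie apart.

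Position on the chromosome moved with some of these changes. Tested genes of chromosome 10, where Ddit3 lies, had a median log2 change of -0.58, and 586 of 690 were lower and 26 higher. Within 1 Mb of Ddit3, 39 of 43 tested genes were lower and 1, Avil, was higher, with a median of -0.54 and a range of -1.29 to 1.95. None of them fell as far as Ddit3. Beyond 1 Mb some genes of the chromosome fell further, among them Dgka, 1.43 Mb away, at -1.71. Mars, the methionyl-tRNA synthetase gene whose last exon meets that of Ddit3, fell by 0.47, and the ratio of Ddit3 to Mars went from 0.371 ± 0.0176 to 0.158 ± 0.00763. After the running median of the 100 nearest tested genes was subtracted, Ddit3 stood at -1.16 (limma adjusted p = 3.05e-11). That median was taken as fixed, here and in all values net of neighbours below. Their p-values hold neither its error nor the scatter of the neighbours, so a departure from the neighbourhood was not tested. Of the other chromosomes 3, 15, 9 and 13 had the lowest medians, at -0.24, -0.19, -0.16 and -0.10, and 17 the highest, at 0.19. The counts without chromosome 10 given below do not remove these shifts. Why the chromosomes moved was not tested.

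Net of the neighbours' median Trib3 stood at -0.95 (limma adjusted p = 0.000282), Ppp1r15a at 0.49 (1.64e-06), Chac1 at -0.36 (0.0125), Xbp1 at -0.25 (1.33e-05) and Asns at 0.15 (0.00079). All of these kept their direction and passed. In this form 4540 of all 15307 tested genes were higher and 4235 lower. Passing was thus common and is not by itself a result about these genes. Atf4, at -0.05, did not pass in this form (limma adjusted p = 0.226), since the genes near it on chromosome 15 had a median of -0.21. Ern1, at -0.12, passed only in this form (limma adjusted p = 0.018). Atf3 and Atf6 did not pass in it either, both at an adjusted p of 0.126.

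**Figure D3:**
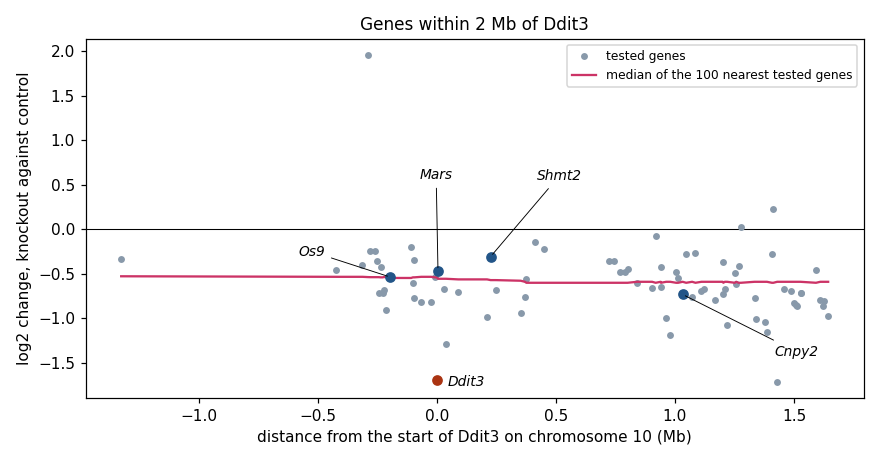
Log2 change of knockout against control (y axis) for tested genes within 2 Mb of the start of Ddit3 (x axis, distance in Mb along chromosome 10), with the running median of the 100 nearest tested genes as a line. Most points lie below 0, around the running median, which lies between -0.53 and -0.60. Ddit3 lies at -1.70, below all genes within 1 Mb, and Dgka, at 1.43 Mb, lies at -1.71.

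Upstream of Atf4, 10 of 15 genes of the eIF2 machinery rose. The counts of this and the following lists are to be read beside the 34.4% higher and 28.6% lower of all tested genes. These 15 are genes of eIF2 kinases, eIF2 and its exchange factor eIF2B, together with Impact, Gcn1l1 and Ppp1r15b. Of the 15, 10 rose, 1 fell and 4 did not pass, with a median log2 change of 0.19 (0.12 net of the neighbours' median). Gcn1l1 and Ppp1r15b are among the 10. So is Eif2s3x, which shares 34.6% of its 50-base stretches with transcripts of other genes. Eif2ak1, the haem-regulated kinase HRI, went from 5161 ± 206.9 to 6878 ± 98.2 scaled reads (log2 change 0.41 ± 0.04, limma adjusted p = 7.25e-08). Gcn1l1, the activator of the amino acid sensor GCN2, rose by 0.39 (limma adjusted p = 1.38e-07). Eif2ak2, the double-stranded RNA sensor PKR, fell by 0.23 on the log2 scale (limma adjusted p = 5.38e-05). Named after their values were seen, all 5 eIF2B subunit genes rose, by 0.14 to 0.29. The sensor of the endoplasmic reticulum that feeds eIF2, Eif2ak3 or PERK, was at 0.03 (limma adjusted p = 0.516), and Eif2ak4, which encodes GCN2, at 0.08 (limma adjusted p = 0.0684). Neither passed. Ppp1r15b rose by 0.19 (limma adjusted p = 0.00014).

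Partner transcription factors of the bZIP class changed by small amounts. Of 9 tested, 5 rose, 3 fell and 1 did not pass. Jun and Atf5, the latter itself translated more when eIF2 is phosphorylated, rose by 0.29 and 0.28 (limma adjusted p = 0.00179 and 6.11e-05). Cebpb, a partner of ATF4 and CHOP at composite sites, fell from 339.8 ± 51.3 to 250.4 ± 34.7 scaled reads (limma adjusted p = 0.00583), and Cebpg fell by 0.15. Cebpb shares over 20% of its exon length with Tmem189 on the other strand.

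The amino acid genes that ATF4 is known to activate did not move as 1 block. Of 14 genes of amino acid synthesis and one-carbon metabolism 4 rose and 7 fell (median -0.18, and -0.09 net of neighbours). Got1, a glutamate-aspartate aminotransferase, rose from 8005 ± 154.1 to 11921 ± 123.8 scaled reads (limma adjusted p = 3.79e-10), and Aldh18a1, which starts proline synthesis, rose by 0.36. Aldh1l2, a mitochondrial folate enzyme, fell by 1.14 (limma adjusted p = 6.32e-11) and Mthfd1l by 0.57 on the log2 scale, and both lie on chromosome 10. Aldh1l2 still passed net of its neighbours, at -0.59, while Mthfd1l, at -0.06, did not (limma adjusted p = 0.127). Without chromosome 10, 4 of 11 rose and 4 fell.

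Of 9 amino acid transporters 4 rose and 3 fell (median -0.01, which turned to 0.08 net of neighbours). The cationic amino acid carrier Slc7a1 rose from 19219.5 ± 1012 to 27104.5 ± 1128 scaled reads (log2 change 0.50 ± 0.04, limma adjusted p = 5.21e-08). The leucine carrier Slc7a5 rose by 0.46 (limma adjusted p = 9.78e-09). Slc7a3, a low-level relative of Slc7a1, fell from 44.7 ± 1.84 to 19.7 ± 5.23 scaled reads, and Slc6a9, a glycine carrier that shares over 20% of its exon length with other genes, fell by 0.45.

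Of 13 genes for tRNA charging and export 3 rose and 6 fell (median -0.04, and -0.10 net of neighbours). Wars and Gars, which charge tryptophan and glycine tRNA, rose by 0.21 and 0.14. Xpot, a tRNA exporter and not a synthetase, fell by 0.79 and Mars by 0.47 on the log2 scale, and both lie on chromosome 10. Net of its neighbours Xpot was at -0.27 and Mars turned to 0.09 (limma adjusted p = 0.036).

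Of 13 other tested targets of ATF4 and CHOP 2 rose and 7 fell (median -0.23, and -0.34 net of neighbours), among them genes of cell death and of autophagy. Tnfrsf10b, the death receptor that CHOP activates in human cells, rose from 908.6 ± 45.0 to 1598 ± 33.4 scaled reads (log2 change 0.81 ± 0.05, limma adjusted p = 2.05e-09), opposite in sign to Ddit3. Nupr1, a small stress-induced chromatin protein, fell from 722.7 ± 69.8 to 276.0 ± 29.8 scaled reads (log2 change -1.39 ± 0.09, limma adjusted p = 3.3e-09). Ddit4, an inhibitor of mTOR signalling on chromosome 10, fell by 1.76 (limma adjusted p = 0.00121). Net of its neighbours Ddit4 was at -1.13 (limma adjusted p = 0.00802). Bcl2l11, named after its values were seen and known as the CHOP-responsive death gene Bim, fell by 0.58 (limma adjusted p = 1.44e-06). Sesn2, which rose by 0.18, lost its call without knockout 1, knockout 2, control 2 or control 3, so the count of 2 becomes 1 without any of these libraries.

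Downstream of ATF6 and XBP1, 9 of 17 tested chaperones and folding enzymes rose and 6 fell (52.9% and 35.3%, beside 34.4% and 28.6% of all tested genes). The median was 0.10, and 0.03 net of neighbours, and without chromosome 10 the counts were 9 and 4 of 15. Of those 4, Manf and Ppib on chromosome 9 turned to 0.10 and 0.09 net of neighbours (limma adjusted p = 0.00781 and 0.0274). Dnajc3 and Sdf2l1 stayed lower, at -0.24 and -0.26. Hyou1, a large chaperone of the ER lumen, rose from 11233 ± 506.0 to 16062 ± 565.7 scaled reads (log2 change 0.52 ± 0.04, limma adjusted p = 1.17e-08). Dnajb11, a co-chaperone of BiP, rose by 0.33 (limma adjusted p = 1.27e-06). Hspa5, the gene of BiP and the usual read-out of ATF6, was named after its values were seen; it rose by 0.11 (limma adjusted p = 0.00498) and stood at 0.02 net of its neighbours (adjusted p = 0.641). Hsp90b1, the gene of GRP94 on chromosome 10, fell from 112259 ± 4665.5 to 72300.0 ± 1009.5 scaled reads and was at 0.001 net of its neighbours (limma adjusted p = 0.979). Cnpy2, also on chromosome 10, fell by 0.73 and still passed net of its neighbours, at -0.14.

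Of 14 genes of ER-associated degradation 5 rose and 3 fell, shares of 35.7% and 21.4% that are close to those of all tested genes. The median was 0.03 and turned to -0.01 net of neighbours. Sel1l and Syvn1, which form the core ubiquitin ligase of that pathway, each rose by 0.30 (limma adjusted p = 8.3e-06 and 0.00101). Os9, a lectin on chromosome 10, fell by 0.54 and Derl1, a channel component on chromosome 15, by 0.24 on the log2 scale, and both were near 0 net of their neighbours (0.01 and 0.03). Of 9 other membrane sensors and processing factors 1 rose, the Atf6 relative Atf6b by 0.20, and 2 fell, with a median of 0.02 that turned to -0.02 net of neighbours. These were Creb3, which shares over 20% of its exon length with other genes, by 0.21 and Rtcb, the ligase on chromosome 10 that joins the Xbp1 exons, by 0.64 on the log2 scale. Net of its neighbours Rtcb was at -0.02.

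Of 5 tested mRNAs that IRE1 is known to cut in mouse fibroblasts 4 fell and none rose, beside 28.6% lower among all tested genes. The median was -0.81, and -0.33 net of neighbours. Pdgfrb, a growth factor receptor gene, fell from 1354.5 ± 150.3 to 526.6 ± 45.9 scaled reads (limma adjusted p = 4.63e-09) and Pmp22, a myelin protein gene, from 6328 ± 44.1 to 3417.5 ± 96.0 (limma adjusted p = 1.31e-11). Bloc1s1, the best known of them and named after its values were seen, fell by 0.81 but lies on chromosome 10 and shares over 20% of its exon length with Rdh5. All 3 genes of that list outside chromosome 10 fell. Many other inputs set these mRNAs, and cleavage was not measured.

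Heat shock and immediate early genes, which report handling and acute stress, gave 2 higher and 2 lower of 10 tested (median 0.02, which turned to -0.09 net of neighbours). Dusp1 rose by 0.43 and Dnajb1 by 0.12, and net of their neighbours neither passed (limma adjusted p = 0.718 and 0.223). Egr1 and Junb fell by 0.46 and 0.36 on the log2 scale. Over all lists together, the 12 tested genes on chromosome 10 had 11 lower and none higher. That is 91.7% lower, beside 84.9% of all tested genes of that chromosome. The 116 elsewhere had 33 lower and 45 higher, with a median of 0.02. Of those elsewhere 28.4% were lower. Of all tested genes 28.6% were lower and 34.4% higher, but these shares include chromosome 10 and are not a matched background. The shifts of chromosomes 3, 9, 13 and 15 remain in the counts of genes elsewhere.

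**Figure D4:**
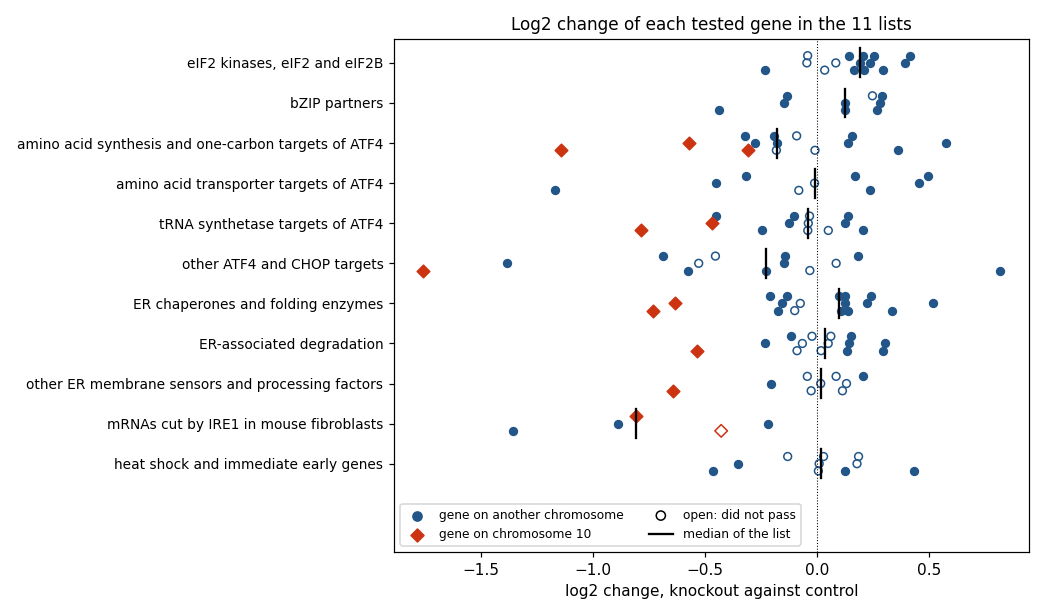
Log2 change of knockout against control (x axis) of every tested gene in the 11 lists (y axis); filled symbols passed, open symbols did not, red diamonds lie on chromosome 10 and the black bar is the median of the list. The list of eIF2 kinases, eIF2 and eIF2B lies mostly above 0 (median 0.19), that of mRNAs cut by IRE1 below 0 (median -0.81), and the diamonds lie below 0 in every list that holds any.

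Libraries of a group also differed among themselves in these genes. Knockout 3 was the lowest knockout library in 7 of the 10 and the highest in none, while knockout 2 was the highest in 6. Over all tested genes knockout 3 was lowest in 42.4% and knockout 2 highest in 42.1%. The widest gaps were in the ATF4 targets Trib3, at 0.20 above the group mean in knockout 2 and 0.22 below it in knockout 3 on the log2 scale, and Chac1, at 0.22 above and 0.22 below. Atf3 differed most in control, at 0.25 above the group mean in control 1 and 0.21 below it in control 2. The longer lists differed in which library stood out. Knockout 2 was the highest knockout library in 11 of 13 genes for tRNA charging and export and in 11 of 14 for amino acid synthesis, but in 6 of 15 of the eIF2 machinery. Over all tested genes control 3 was the highest control library in 42.1% and control 1 in 33.9%. Control 3 was the highest control library in 12 of 15 genes of the eIF2 machinery, 11 of 14 of ER-associated degradation and 7 of 9 transporters. Among other targets of ATF4 and CHOP control 1 was the highest control library in 11 of 13, and knockout 3 the lowest knockout library in 10 of 13. The cause of these differences was not tested.

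**Figure D5:**
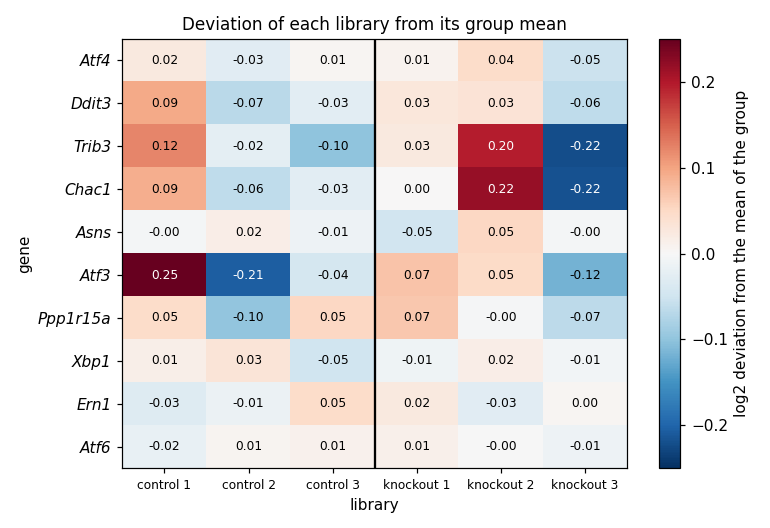
Deviation of each library (x axis) from the mean of its group on the log2 scale (colour and printed value) for each of the 10 genes (y axis). Trib3 and Chac1 are high in knockout 2 and low in knockout 3, Atf3 is high in control 1 (0.25), and Atf6, Xbp1 and Ern1 vary by at most 0.05.

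As a description of patterns over the 6 libraries, the genes most like Atf4, Xbp1 and Atf6 were taken from 11562 tested genes with a mean of at least 100. For Atf4 they were Tmbim6, Slc4a8 and Zfp651 (Pearson r 0.9997, 0.9991 and 0.9985), and 1903 genes had an r above 0.95. For Xbp1 they were Nsmce1, Cox16 and Cmtm5 (0.997, 0.9936 and 0.9933), with 173 genes above 0.95. For Atf6 they were Pcmtd1, Gm14270 and Wipf3 (0.9944, 0.9944 and 0.9942), with 169. The 6 points of each gene share the difference between the 2 groups.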

How the data were processed

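The authors deposited signal values, that is, reads per gene after division by a DESeq size factor of each library, per the labels and the series' design text. Named in the submitters' processing notes, with no role or order, are DESeq, HTSeq 0.5.3, STAR 2.5.0a and cutadapt 1.6, and the build mm10. For the annotation and the strand setting no source used here gives a value. In every column all values were whole multiples of the smallest (within 0.001), taken as 1 read; in knockout 2 that worth lies too close to 1 for the recovery to be accepted, so that library is not in the count tests. Genes with 0 reads in any library are not listed. The 6 value columns were all used.

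Values were taken as log2(value + 1), genes with at least 10 in at least 3 of 6 libraries entered the test, and limma 3.58.1 under R 4.3.3 (trended, robust, two-sided) set the knockout against the control libraries with Benjamini-Hochberg adjustment over 15307 genes and a threshold of 0.05. Fold changes on this scale understate those of low genes. An exact permutation test of 3 against 3 cannot go below 0.1. The test was checked on simulated data. Alternatives used edgeR 4.0.16 and DESeq2 1.42.0 on recovered reads of 5 libraries, other pseudocounts, filters, scalings and spreads, each library left out, and values net of the running median of the 100 nearest tested genes. Positions are from GENCODE M21 (GRCm38), matched for 19121 of 19213 IDs, and promoters from RefSeq. The genes and lists were chosen with earlier results of these data known. The rule named all 10 regulators, Spp1, and the 3 genes most like Atf4, Xbp1 and Atf6. From each list it named up to 2 genes higher and 2 lower with the largest change. Other list genes were named outside that rule. Among them are Eif2ak3, Eif2ak4, Ppp1r15b, the eIF2B subunit genes, Eif2s3x, Hspa5, Manf, Ppib, Dnajc3, Sdf2l1, Bcl2l11 and Bloc1s1.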

Additional observations from a re-analysis of the deposited data

How the results depend on the processing

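Over 18 alternatives the 10 regulators gave 180 values, of which 158 kept direction and side of the threshold, 20 lost the call, 2 gained it and none reversed. Of 734 values of other named genes 694 kept both, 36 lost the call and 4 reversed. The 4 were net of the neighbours' median: Mars at 0.090, Hsp90b1 at 0.0012, Os9 at 0.0099 and Derl1 at 0.031. Of the regulators called higher, 1 in place of 2 was left with TMM scaling, equal totals, edgeR, DESeq2 or neither trend nor robust variance. Each time Asns was lost. The edgeR and DESeq2 runs also lack knockout 2, so method and library cannot be told apart there. With neither trend nor robust variance 3 in place of 5 lower were left. Leaving out 1 library gave 1 to 2 higher and 3 to 5 lower, with 1 higher without knockout 2 and 3 lower without knockout 1, control 1 or control 2. The cause of these moves was not tested.

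Limma's treat at 1.2-fold, stricter by construction, gave 1581 higher and 2168 lower genes, and 1 and 2 of the regulators. In the lists it gave, higher and lower, 2 and 0 for the eIF2 machinery, 0 and 0 for bZIP partners, 1 and 2 for amino acid synthesis, 0 and 3 for tRNA charging, 1 and 3 for other ATF4 and CHOP targets, 1 and 2 for chaperones, 0 and 1 for ER-associated degradation, 0 and 1 for other sensors and 0 and 0 for heat shock genes, with 2 higher transporters. Equal totals gave 3 lower in the eIF2 machinery and 3 higher bZIP partners; edgeR and values net of neighbours each gave 2 lower in the eIF2 machinery, and neither trend nor robust variance gave 1 lower bZIP partner. Other ATF4 and CHOP targets had 1 higher with equal totals, edgeR, DESeq2, neither trend nor robust variance, or net of neighbours. Chaperones had 5 higher with edgeR and with DESeq2. ER-associated degradation had 3 higher net of neighbours, and 5 lower with TMM, equal totals and edgeR. Heat shock genes had 1 higher with equal totals, edgeR and DESeq2 and 0 net of neighbours. Without 1 library the other ATF4 and CHOP targets had 1 to 3 higher, and the other sensors 1 to 2.

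No label says what libraries of the same number share, so the numbers were not taken as pairs. Same-numbered libraries did not deviate together (correlations -0.107, -0.244 and -0.038). With the replicate block 5058 genes were higher and 4231 lower, and the regulators kept 2 higher and 5 lower. Of 468 counts 409 were within 1.5 times the reported one. Of 234 list medians 189 moved by less than the spread between replicates and 45 by more. With equal totals the median of bZIP partners was 0.08, of transporters -0.06, of tRNA charging -0.09, of chaperones 0.05, and those of ER-associated degradation, other sensors and heat shock genes turned to -0.02, -0.03 and -0.03. With 188 to 266 reads per library, Atf3 is the regulator most limited by counting error.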
